A study of Homo sapiens with 6 samples.

Results

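The regions described here are stretches of the human genome where transcription was called from 250k cells and from neither larger preparation. They were chosen from the called peaks themselves: the dREG peaks of 3 lists were joined wherever they shared 1 bp or more on chromosomes 1 to 22 and X, and joined regions with peaks of the 250k list only were kept. The joining gave 34308 regions, of which 356 met the rule, or 1.04% of all regions and 2.69% of the 13211 regions that hold a peak of the 250k list. Each of the 356 consists of 1 peak. Their absence from the other lists is the rule and not a finding.

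Precision run-on sequencing (PRO-seq) lets engaged RNA polymerases in permeabilized cells add biotin-labelled nucleotides and sequences the labelled nascent RNA. The samples were 6 libraries of untreated K562, an established human leukaemia line of erythroid character that the labels call lymphoblastoid, in 3 groups of 2 biological replicates separated by 3 or more passages. PRO-seq 1M used the published protocol with 3 affinity purifications on 1M cells, qPRO-seq 1M a quick protocol with 1 purification on 1M cells, and qPRO-seq 250k the quick protocol on 250k cells. All groups used biotin-labelled C and U and molecular identifiers of 6 nt in both adapters; the 1M libraries had 11 PCR cycles and the 250k libraries 14. Each group has 1 peak list for both replicates, so no value below has a spread between replicates and no p-value between groups was computed.

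dREG is a classifier that recognises active promoters and enhancers from run-on signal, typically where polymerases start in both directions. Run-on also labels the polymerase that makes short RNAs such as 5S ribosomal RNA and tRNA, as well as the polymerase of protein-coding genes, which carries on past the end of the coding sequence and the polyadenylation site before it is released. A called peak is therefore not by itself a promoter or an enhancer.

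The 1M lists held 24707 peaks for the published and 38177 for the quick protocol, and the 250k list 15562, without read counts, so the depth behind each is unknown. Of 4 erythroid marker genes (GATA1, TAL1, KLF1 and HBG1), all 4 had a peak within 500 bp of a start in each of these lists. Of 5 B-lymphoid markers, 2, 2 and 1 had one, and CD79A, MS4A1 and PAX5 had none in any list. Intervals in parentheses are 95% confidence intervals, Wilson for a share and Newcombe for a difference in shares. They cover counting error only, and neighbouring regions are not independent.

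The 250k-only regions carried low scores in their own list. The authors' dREG score had a median of 0.383, an interquartile range of 0.346 to 0.434 and a maximum of 0.63, against a median of 0.602 in the 12855 regions that hold a 250k peak and a peak of another list. Put as a rank within the 250k list, the median region stood at the 13.7th percentile and the highest at the 60.4th. The lowest 3 score deciles held 308 of the 356 regions (86.5%), and the 4 highest deciles held none. The regions were also narrower, with a median of 340 bp against 440 bp. The deposited p of a peak was 0.01 or less in 173 (48.6%), against 84.6% of the other regions with a 250k peak. Among these 173 were 91 with a deposited p of exactly 0 (25.6% of the 356), against 11.4% of those other regions. A limit on p keeps such peaks whatever their score. These values bear on the calling that chose the regions, so they are a description and were not tested.

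The rule has a sharp edge. Just inside it, 4 regions touch a peak of another list without sharing a base, among them a region at the start of CAVIN1, which encodes a coat protein of caveolae (score 0.409). A further 3 lie 10 bp from one, including a region at the start of SET (0.392) and a region in TMIGD3 (0.317). Just outside it, 1 peak of the 250k list shares 10 bp with a peak of another list.

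One feature that the rule did not use was overlap with genes of short structured RNAs. The 5S ribosomal RNA genes form a tandem array on chromosome 1, and 16 of its 17 annotated copies carry the same sequence. The U2 small nuclear RNA, which recurs in another array (for example GRCh38 chr17:43271369-43271559, minus strand), and a pair of small nucleolar RNAs from introns of ribosomal protein genes are shown because regions called from 250k cells alone overlap them. All are GENCODE transcript sequences, 5′ to 3′, with T for U. In U2 the capitals mark GTAGTA from position 33, counted from 1 at the 5′ end, the stretch that pairs with the intron's branch site. In SNORD95 and SNORD101 they mark the C box TGATGA and the D box CTGA. An overlap with a gene means 1 bp or more. The regions reach only the 5′ part of these snoRNA genes. They stop 59 bp short of the 3′ end of SNORD95 (68 bp long) and 39 bp short of that of SNORD101 (73 bp long). Both D boxes lie outside them.
U2 snRNA: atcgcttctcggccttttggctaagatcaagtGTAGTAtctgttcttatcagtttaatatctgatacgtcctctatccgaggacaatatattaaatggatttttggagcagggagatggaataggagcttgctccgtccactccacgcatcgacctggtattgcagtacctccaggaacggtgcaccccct
SNORD95: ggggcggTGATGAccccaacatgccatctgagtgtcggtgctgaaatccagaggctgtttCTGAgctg
SNORD101: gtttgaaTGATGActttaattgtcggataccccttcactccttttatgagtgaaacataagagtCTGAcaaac

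All 7 of the 17 5S genes with a 250k peak were regions of the 250k list alone: RNA5S2, RNA5S3, RNA5S7, RNA5S12, RNA5S13, RNA5S16 and RNA5S17. Their scores were 0.501, 0.498, 0.495, 0.406, 0.502, 0.454 and 0.563 in that order. The deposited p of the peak was above 0.01 for RNA5S2, RNA5S3, RNA5S7, RNA5S13 and RNA5S16 (0.0118 to 0.0178). It was 0.00852 for RNA5S17 and 0 for RNA5S12. The nearest 1M peak was 150 bp from the RNA5S12 region, 480 bp from that of RNA5S17 and 1440 to 22590 bp from the others. In the 35.9 kb of the array (chr1:228610266-228646158), the PRO-seq 1M list had no peak and the qPRO-seq 1M list had 1, at chr1:228635311-228635680 between copies, with a score of 0.336. Each of the 7 regions covered the 5′ part of its gene, began 93 to 192 bp upstream and stopped 4 to 40 bp short of the 3′ end. The 7 copies have identical sequences, so a short read inside the gene cannot be given to one of them. How the authors' alignment placed such reads is not given in the sources used here, and which copy carried the signal cannot be read from the peaks. Among all 49 rRNA genes that RefSeq annotates, these 7 were the only ones with a peak in any of the 3 lists. By the GENCODE annotation, 2 qPRO-seq 1M-only regions (0.0157%) overlapped rRNA genes as well. A 5S pseudogene on chromosome 3, RNA5SP149, also had a region of the 250k list alone (chr3:180161901-180162110, score 0.532), 386740 bp from the nearest peak of either 1M list. It was the 1 such region at a GENCODE rRNA pseudogene (0.281%). Other regions with a 250k peak numbered 5 there (0.0389%) and qPRO-seq 1M-only regions 5 (0.0394%).

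The U2 array differed from the 5S array in that the other lists were present. U2 is part of the spliceosome and recognises the branch site of introns. Of 13 annotated copies over 66.4 kb of chromosome 17, inside the span of the gene CCDC200, 1 was overlapped by a PRO-seq 1M peak, 7 by a qPRO-seq 1M peak and 11 by a qPRO-seq 250k peak. Of these, 3 copies carried regions of the 250k list alone, at chr17:43241181-43241410 (score 0.486), chr17:43266641-43267100 (0.496) and chr17:43271361-43271710 (0.539). A further region, chr17:43241431-43241690 (0.398), lay beside the first of them. These 3 copies share their sequence with 8 others, so the choice of copy is again uncertain. Outside the array, the RefSeq snRNA gene LOC124904147 had a region of the 250k list alone at chr17:43367921-43368160 (0.375).

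Small nucleolar RNAs guide chemical modification of ribosomal and spliceosomal RNA and are mostly cut from the introns of host genes. A run of 250k-only regions was at such a host. Between chr1:28577321 and chr1:28580240, 5 of them followed each other over the end of TRNAU1AP, which encodes a tRNA-associated protein, and the facing noncoding gene SNHG12, which hosts SNORD99, SNORA61, SNORA44 and SNORA16A. Their scores were 0.435 and 0.492 in TRNAU1AP, and 0.471, 0.522 and 0.505 in SNHG12. The region scored 0.505 overlapped SNORA61, and those scored 0.471 and 0.522 lay 53 and 9 bp on either side of SNORD99. The nearest peak of a 1M list was 390 bp away from the last of the 5 and 2990 bp away from the first. All 3 lists had peaks nearer the 5′ end of SNHG12. Other regions overlapped SNORD101 in RPS12 (chr6:132814971-132815340, 0.546), SNORA10 in RPS2 (chr16:1962411-1962670, 0.448), SNORD95 in RACK1 (chr5:181243371-181243720, 0.409), SNORD12B in ZFAS1 (chr20:49279971-49280330, 0.4) and SNORD17 in SNX5 (chr20:17962551-17962960, 0.327). The overlap was small at SNORD95 and at SNORD12B, where the region stopped 79 bp short of the 3′ end of a gene of 91 bp.

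Transfer RNA genes were mostly found by all 3 lists where they had a 250k peak. Regions of the 250k list alone overlapped 6 tRNA genes, among them a lysine tRNA gene, TRK-TTT1-1, in an intron of ZFHX3 (chr16:73478301-73478550). Its score of 0.606 was the third highest of the 356 regions, and the nearest peak of a 1M list was 78310 bp away. The others were TRK-TTT2-1 (0.497), TRD-GTC2-5 (0.378), TRN-GTT2-5 (0.378), TRX-CAT1-4 (0.336) and TRM-CAT5-2 (0.44). Of 443 tRNA genes, 212 had a 250k peak and 189 had a peak in all 3 lists.

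Over RefSeq genes of the 4 kinds, 23 of the 356 regions (6.46%, 4.34 to 9.51) overlapped one, against 1.91% of the other regions with a 250k peak, 0.299% of the 12700 regions with a qPRO-seq 1M peak only and 0.0949% of the 2108 with a PRO-seq 1M peak only. The differences were 4.55 (2.42 to 7.61), 6.16 (4.04 to 9.21) and 6.37 (4.23 to 9.41) percentage points. By kind, snoRNA genes were overlapped by 6 regions (1.69% against 0.101% of the other 250k regions) and rRNA genes by 7 (1.97% against 0). Genes of snRNA were overlapped by 4 (1.12% against 0.366%), a difference of 0.758 points (0.0617 to 2.49). Of these 4, 3 overlapped U2 copies of identical sequence in the array, and the other overlapped LOC124904147. The tRNA share, 1.69%, differed from the 1.44% of the other 250k regions by 0.246 points (-0.691 to 2.2), an interval that includes 0, and from those of the qPRO-seq 1M-only and PRO-seq 1M-only regions by 1.47 (0.557 to 3.42) and 1.59 (0.646 to 3.53) points. With GENCODE small-RNA genes and pseudogenes added (such as RN7SL4P, RN7SL128P and RNU6-42P) and miRNA genes left out, 27 regions (7.58%, 5.26 to 10.8) overlapped one, against 2.22%, a difference of 5.36 points (3.02 to 8.59). Genes of miRNA were overlapped by 2 regions, MIR4683 and MIR6815 (0.562%, against 0.428%). The difference of 5.36 points, which leaves miRNA out, became 2.49 points (0.698 to 5.27) without the 5S and U2 arrays and the nearby LOC124904147. At a deposited p of 0.01 or less in all lists it was 2.95 points (0.932 to 6.13). That limit, set before joining, left 292 regions of the 250k list alone, not all of them among the 356. The comparison with small-RNA genes was chosen after values had been seen.

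**Figure D1:**
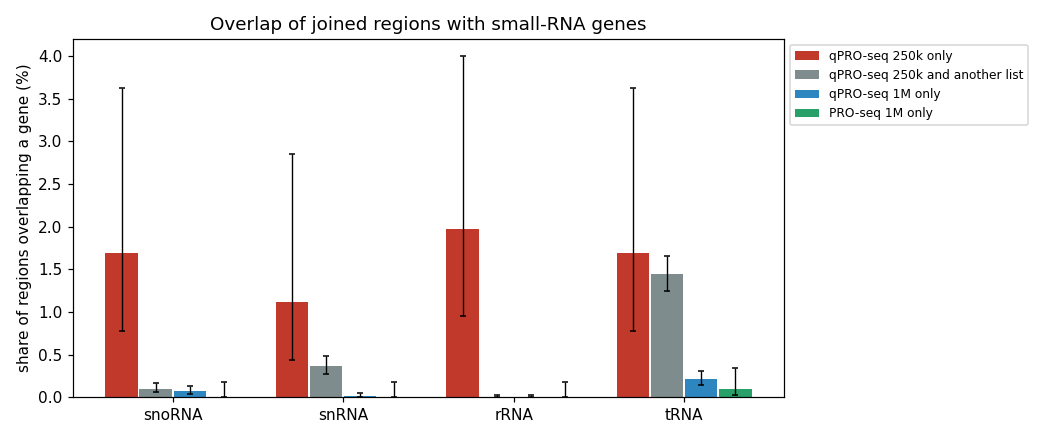
Share of joined regions (%) that overlap a RefSeq gene of each kind of small RNA, by the lists that hold a peak; bars are shares and lines Wilson 95% intervals. The 250k-only bars stand at 1.69, 1.12, 1.97 and 1.69%, with the other 250k regions close to them for tRNA alone (1.44%).

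Relative to annotated transcripts, 145 regions (40.7%, 35.8 to 45.9) lay within 500 bp of a transcript start of any gene. The share was 72.6% in the other regions with a 250k peak, a difference of -31.9 points (-36.9 to -26.7), and 54.3% in PRO-seq 1M-only regions, a difference of -13.5 points (-18.9 to -7.94). In qPRO-seq 1M-only regions it was 26.2%, a difference of 14.5 points (9.46 to 19.7). With both classes limited to regions over 500 bp from the other lists, the last difference was 13.1 points (7.49 to 19.4), from 29.5% against 16.4%. Compared within score quintiles, the first difference was -16.7 points. Regions centred in an exon made up 29.5%, against 33.2% of the other 250k regions, a difference of -3.73 points (-8.3 to 1.27) whose interval includes 0, and against 11.7 and 21.4% of the qPRO-seq 1M-only and PRO-seq 1M-only regions. Those centred in an intron made up 40.4%, against 30, 52.1 and 47.2% in the same order. Those centred outside genes made up 30.1%, against 36.8, 36.2 and 31.4%.

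**Figure D2:**
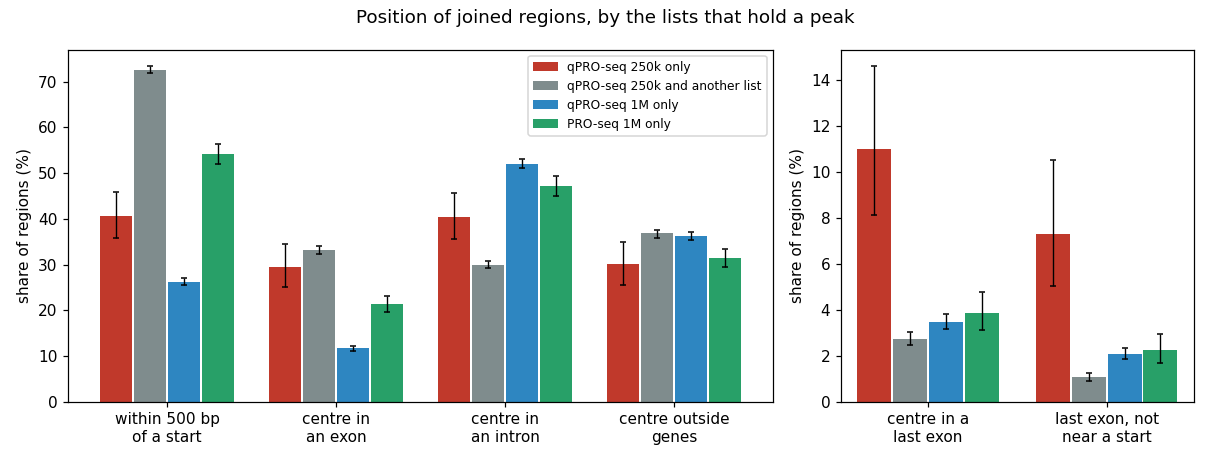
Share of joined regions (%) in each position, by the lists that hold a peak; bars are shares and lines Wilson 95% intervals, and the right panel has its own axis. The 250k-only regions stand at 40.7% near starts, between the other classes, and at 11% in last exons, above the 2.74 to 3.84% of the others.

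Of the 145 start-near regions, 78 (53.8%) lay within 500 bp of a peak of a 1M list. For 91 (62.8%), a gene with such a start had a 1M peak at that start or at another of its annotated starts, and for 54 (37.2%) none had. A start of a protein-coding gene was within reach of 102 of them, and an annotated start lay inside the peak in 80. The region with the highest score of all was at an internal start of BAIAP2, an adaptor protein that shapes actin-rich protrusions (chr17:81056831-81057170, score 0.63, 21440 bp from the nearest 1M peak). Others were at starts in CIRBP, a cold-inducible RNA-binding protein (0.605), in UBQLN1, which delivers ubiquitinated proteins to the proteasome (0.57), and in NDUFV3, a subunit of respiratory complex I (0.562), the last pair each 60 bp from a 1M peak. Among the 15 highest scores were also an intron of ANGPT1, an angiopoietin (0.587, 25600 bp from a 1M peak), the first exon of PDE12, a mitochondrial RNA-trimming enzyme (0.54, 860 bp), and places outside genes on chromosomes 6 (0.588) and 11 (0.565), 250 and 200 bp from a 1M peak.

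Starts seen from 250k cells alone included some of zinc finger genes, a large family of mostly DNA-binding repressors. The share of 250k-only regions in this family, 2.92%, was near the 2.69% of all regions with a 250k peak. The second highest region covered the start of ZNF485 (chr10:43606241-43606490, 0.608) and lay 10690 bp from any 1M peak, and a region at the start of ZNF880 (chr19:52369761-52369990, 0.446) lay 27670 bp from one. Other starts without a 1M peak within 500 bp were in CYB561D2 (0.457, 7000 bp), CEACAM19 (0.453, 18140 bp), PNMA1 (0.388, 38550 bp) and GNAZ (0.359, 34480 bp), with the region's score and its distance to the nearest 1M peak. TTC33 (0.476) counted among them although its region lay 320 bp from a 1M peak. The part of each RefSeq promoter window (GRCh38.p14, plus strand) that lies in the region upstream of the annotated start is shown for ZNF485 (chr10:43606241-43606406) and ZNF880 (chr19:52369761-52369916). Capitals mark matches to 6 motifs searched on both strands: the GC box GGGCGG, the CCAAT box, the TATA box TATAAA, the ETS motif CCGGAAG, the CRE motif TGACGTCA and the NRF1 motif GCGCATGC.
ZNF485: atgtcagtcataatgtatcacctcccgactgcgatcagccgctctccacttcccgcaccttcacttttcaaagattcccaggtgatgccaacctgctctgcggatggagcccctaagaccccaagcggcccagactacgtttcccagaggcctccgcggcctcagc
ZNF880: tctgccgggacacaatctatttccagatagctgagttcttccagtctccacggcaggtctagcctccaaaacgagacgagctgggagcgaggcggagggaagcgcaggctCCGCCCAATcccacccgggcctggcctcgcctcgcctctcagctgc

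The stretch of ZNF485 holds none of these letters, and that of ZNF880 holds a GC box on the minus strand whose end overlaps a CCAAT box. The 250k-only regions overlapped 46 RefSeq promoter windows of 300 bp. These had a median GC content of 63.3%, against 66.3% in the 8994 windows overlapped by other regions with a 250k peak and 58.7% in all 34961 windows. The observed-to-expected CpG ratio had a median of 0.777, against 0.878 and 0.58. A GC box occurred in 65.2% (50.8 to 77.3), against 75.6% and 45%. CCAAT occurred in 43.5% (30.2 to 57.8), against 38.2% and 34.6%, and CCGGAAG in 19.6% (10.7 to 33.2), against 23.8% and 10.3%. TATAAA occurred in 0 of 46 windows, which allows up to 7.71%, against 4.26% and 11.5%. CRE and NRF1 motifs occurred in 2.17% and 6.52%, against 1.85% and 3.06% of all windows. At 46 windows none of these shares was separated from the other 250k regions, whose shares lie inside the intervals. Some windows repeat or overlap within 1 region, as for DNAJC4, ETV1 and MZF1, so the windows are not independent.

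The 3′ ends of genes were the other feature. A region was in a last exon when its centre lay in the final exon of any transcript with 2 or more exons. This held for 39 of the 356 (11%, 8.12 to 14.6), against 2.74% of the other regions with a 250k peak, 3.47% of qPRO-seq 1M-only and 3.84% of PRO-seq 1M-only regions. The differences were 8.22 (5.36 to 11.9), 7.48 (4.63 to 11.2) and 7.11 (4.13 to 10.9) points. Away from starts the shares were 7.3% (26 regions) against 1.05, 2.09 and 2.23%. The size depends on the transcript models, since many genes have short or truncated transcripts. With 1 transcript per gene, the one with the longest spliced length, the share was 5.34% and the differences were 3.68 (1.77 to 6.54), 3.27 (1.36 to 6.13) and 2.63 (0.584 to 5.55) points. Within score quintiles the difference from the other 250k regions was 7.39 points.

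In 31 of the 39 the exon belonged to the protein-coding host gene. Along these genes the regions stood at 2.36 to 99.7% of the length, with a median of 96%, and 18 lay at 95% or more. Among those at the gene's end, the highest scores were at TRNAU1AP (97.9% along, 0.492), SURF1, an assembly factor of cytochrome c oxidase (chr9:133351621-133351990, 99.1%, 0.48), and KLC1, a kinesin light chain (chr14:103713601-103713960, 99.7%, 0.453), where the start of the neighbouring gene XRCC3 lay 253 bp away. RPL23A (96.6%, 0.401) had SNORD4B and a start of TLCD1 within 500 bp. KLF6, a zinc finger factor (86.2%, 0.425), TNFRSF8, which encodes the receptor CD30 (99.6%, 0.42), TEX2 (99.7%, 0.412) and DCTN2, a dynactin subunit (99.7%, 0.372), had no annotated start within 500 bp. Before 80% of the gene's annotated length lay 9 of the 31, among them those in HSPA8, the constitutive HSC70 chaperone (44.6%, 0.546), TMC8 (60.4%, 0.413), DDX59 (62.8%, 0.413) and TCAIM (2.97%, 0.438).

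Coding sequence of the last exon that lies in a region is shown for SURF1 (chr9:133351916-133351982, minus strand, 67 bp) and TRNAU1AP (chr1:28577500-28577633, plus strand, 134 bp). In both genes this stretch makes up only part of the region. The TRNAU1AP stretch lies in the region at chr1:28577321-28577640 (0.435), not in the one scored 0.492. No letters are in capitals.
SURF1: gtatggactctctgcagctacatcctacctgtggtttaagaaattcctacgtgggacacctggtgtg
TRNAU1AP: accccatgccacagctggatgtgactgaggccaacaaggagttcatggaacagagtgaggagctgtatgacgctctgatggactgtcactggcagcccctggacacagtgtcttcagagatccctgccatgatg

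SURF1 carried a pair of regions side by side, 20 bp apart, the second centred in an intron at chr9:133352011-133352430 (89.5% along, 0.357). The nearest peaks of a 1M list were 1580 and 1970 bp away. By the base under the centre, 24 of the 39 last-exon regions were in a 3′ untranslated part of a transcript and 9 in coding sequence, with transcripts that differ counted under both, and 9 in neither.

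Position was also measured along the whole gene, without use of exons. Among the 104 regions in a protein-coding gene and away from starts, the median position was 40.3% of the gene length (interquartile range 19.4 to 86.7). The stretch beyond 80% of the gene length held 28 of them (26.9%, 19.3 to 36.2), against 14.9% of the other regions with a 250k peak, 12.7% of qPRO-seq 1M-only and 13.6% of PRO-seq 1M-only regions. These differences were 12 (4.16 to 21.4), 14.2 (6.55 to 23.5) and 13.4 (5.02 to 23) points. Past the gene, 26 of 83 regions outside genes and away from starts (31.3%, 22.4 to 41.9) lay within 10 kb of the 3′ end of a protein-coding gene, against 14.8, 12.8 and 19.7%. The differences were 16.5 (7.36 to 27.2), 18.5 (9.46 to 29.2) and 11.7 (1.8 to 22.9) points. This measure too was chosen after values had been seen.

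**Figure D3:**
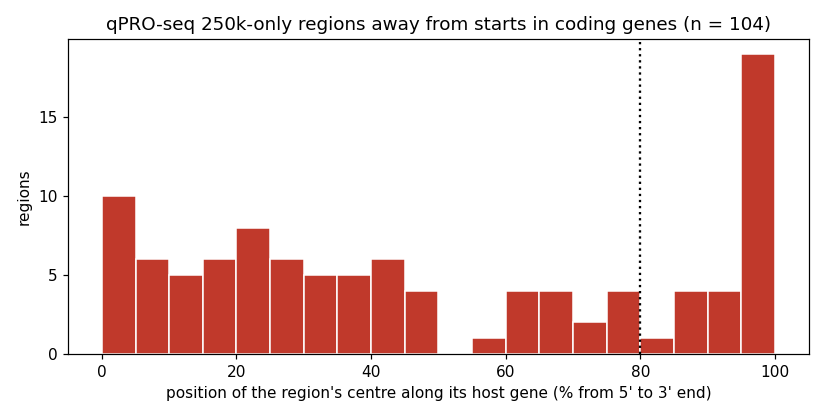
Number of 250k-only regions (y axis) by position along the host gene (x axis, % from the 5′ to the 3′ end, bins of 5%) for the 104 regions in protein-coding genes and away from starts; the dotted line marks 80%. The final bin, 95 to 100%, is the tallest with 19 regions, and the first holds 10.

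Most protein-coding hosts had a called start. The 249 regions inside a gene fell in 239 host genes, 203 of the regions in protein-coding genes and 22 in long intergenic noncoding genes. For 101 protein-coding hosts of regions away from starts, a start peak was present in the PRO-seq 1M list for 78 (77.2%), in the qPRO-seq 1M list for 82 (81.2%) and in the qPRO-seq 250k list for 69 (68.3%). Over all 19864 protein-coding genes these shares were 52.9, 54.5 and 44%. All 3 lists had one for 67 hosts (66.3%, 56.7 to 74.8), against 43.1% of all genes, and no list for 16 (15.8%). Of 21 hosts with a last-exon region away from starts, 20 had a start peak in a 1M list (95.2%, 77.3 to 99.2). Over the 101 hosts this share was 84.2% (75.8 to 90), inside that interval. All 3 lists had a start peak for 14 of the 21 (66.7%), near the 66.3% of the 101. Gene length was not matched, and longer genes offer more room for a region and more annotated starts.

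Besides CCDC200 with 4 regions and SNHG12 with 3, 5 genes held 2: CPED1, SURF1, UTRN, TRNAU1AP and RACK1. RACK1, a scaffold protein of the small ribosomal subunit, had its pair in introns (0.409 and 0.369), each 20 bp from another 250k peak and within 140 bp of a qPRO-seq 1M peak. In UTRN, which encodes the dystrophin relative utrophin, the pair lay deep in introns at 15.1 and 36.8% of the gene (0.449 and 0.512), 85430 and 48560 bp from the nearest 1M peak. In CPED1 both were near annotated starts (0.357 and 0.347).

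By gene family, 5 of 13 lists of genes had a region, 18 regions in all. Genes of cytosolic ribosomal proteins had 7 of their 60 regions with a 250k peak in the 250k-only set (11.7%, 5.77 to 22.2), against 2.69% over all regions with a 250k peak. They were RPS12 (0.546), RPS2 (0.448), RACK1 with its pair, RPL41 (0.408), RPL23A (0.401) and RPL12 (0.349). A snoRNA gene started within 500 bp of the regions in RPS12, RPS2, RPL23A and RPL12 and of 1 of the pair in RACK1. The list of abundant noncoding RNAs and small-RNA hosts, which does not include ZFAS1, had 3 of 18 (16.7%, 5.84 to 39.2), all in SNHG12. Zinc finger genes had 5 of 171 (2.92%, 1.26 to 6.66), in ZNF880, ZNF131, ZNF385A, ZNF300 and ZNF862, with scores of 0.309 to 0.446, a share near the background. Cell cycle genes had 2 of 45 (CDK11B 0.369, E2F3 0.396) and chaperones 1 of 35 (HSPA8). Erythroid and globin genes had 0 of 13, heme and iron genes 0 of 15, replication-dependent histones 0 of 15, glycolysis 0 of 20, and the other 4 lists none.

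Distances to the other lists covered a wide range. The nearest peak of either 1M list was a median of 1160 bp away (interquartile range 270 to 7692), against 6955 bp from a qPRO-seq 1M-only region and 830 bp from a PRO-seq 1M-only region to the nearest peak of another list. Each class was measured to a different pair of lists, and these pairs differ in their number of peaks, so the distances of the classes are set side by side only. Within 500 bp lay 129 of the 356 (36.2%, 31.4 to 41.4), and over 500 bp and up to 10 kb lay 145 (40.7%); the shares within 500 bp were 26% and 44.7% in those classes. Of the 129, 84 were within 500 bp of both 1M lists, 78 were near a transcript start, and for 79 the neighbouring region itself held a 250k peak. Start-near regions had the shortest median distance, 480 bp, against 1240 bp for exonic, 2320 bp for intronic and 2160 bp for intergenic ones.

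**Figure D4:**
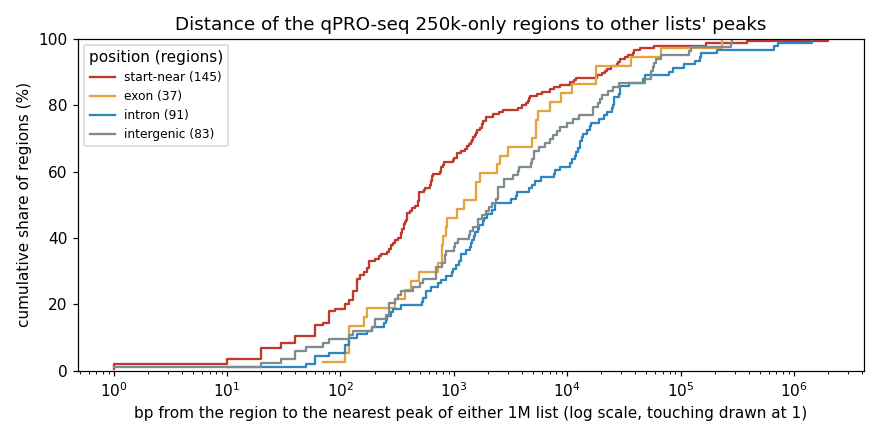
Cumulative share of 250k-only regions (y axis, %) by distance to the nearest peak of either 1M list (x axis, bp, log scale), for 145 start-near, 37 exonic, 91 intronic and 83 intergenic regions. The start-near line runs above the others up to several kb, with a median of 480 bp against 1240 to 2320 bp.

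Beyond 10 kb lay 82 regions, 35 of them in introns, 21 intergenic, 20 near a start and 6 in exons away from starts, and 79 of the 82 were also over 10 kb from any other 250k peak. Beyond 100 kb lay 16, of which 8 were intronic. The farthest was at a start of the pseudogene HERC2P3 (chr15:20506141-20506380, 0.486), 1988180 bp from a 1M peak. In introns the farthest were in EYS, a retinal photoreceptor gene (chr6:65628271-65628570, 0.468, 1433880 bp), DPP10, which encodes an accessory subunit of potassium channels (chr2:114937541-114937760, 0.385, 729890 bp), and PID1 (chr2:229180851-229181200, 0.438, 670120 bp).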

How the data were processed

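The deposited data are dREG peak lists of 6 K562 libraries, 1 list per group of 2 replicates. Per the file columns, the authors deposited start, end and centre positions, a dREG score and a p-value for each peak; there is no header. Per the submitters' processing notes, fastp 0.20.0, Bowtie2 2.3.5.1, UMI-tools and deepTools 3.1.3 were used and GRCh38 (hg38) is the build named. The pooling of replicates and the version and thresholds of dREG are not given in the sources used here. The score and the p-value were used only within their own list or as a filter.

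Peaks were joined where they shared 1 bp or more (Python 3.11.15, numpy 2.4.6, scipy 1.17.1). Printed starts are 1 above the deposited ones, which count from 0, and positions lie on a grid of 10 bp. A region with several peaks was placed by its highest-scored one, from the peak's centre. Exons, starts and transcript sequences came from GENCODE 29, and small-RNA genes and promoter windows from RefSeq (GRCh38.p14). Shares have Wilson and differences Newcombe 95% intervals. The scripts were tested on simulated data. The members and gene lists were chosen with earlier results of these data known. Genes were named by rule: hosts of the 15 highest scores, of the 15 highest in last exons of coding genes, with 2 or more regions, or in a gene list, the 5 farthest regions and up to 3 at each edge of the rule. Genes with starts seen only at 250k, and those with small RNAs, were chosen after their values were seen. Alternatives are given in the closing section. Some named items are not reported here.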

Additional observations from a re-analysis of the deposited data

Results flagged for a closer look

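Outside chromosomes 1 to 22 and X, 10 of 238 joined regions (4.2%, 2.3 to 7.56, Wilson 95% interval) held a qPRO-seq 250k peak only, against 1.04% on those chromosomes. They are given here because the comparisons did not use these sequences, and no control level exists for them. Of these, 3 were on the mitochondrial genome and 7 on alternate sequences of the assembly. Mitochondrial peaks numbered 1 for either 1M group and 5 for the 250k group. These regions entered none of the comparisons, and their score was as high as 0.739 on the mitochondrial genome.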

How the results depend on the processing

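Of 78 alternative values over 17 results, 44 stayed within the interval of the reported value (counts within 1.5 times), 34 moved and 0 changed direction. The number of regions was 221 with peaks up to 500 bp apart joined, 127 with peaks scored below their list's median left out, 10 with only the 250k list so limited, and 1273 when a shared peak had to overlap by 50% of both. Joining touching peaks as well, an alternative added after seeing the data like all small-RNA alternatives, gave 352. A limit of p of 0.01 or less, set on the peaks of all lists before joining, gave 292. Only 173 of the 356 had such a p, so the 292 include regions outside the 356. The shares at this limit below are shares of the 292. The share near a start was 51.1% with 1000 bp, 25.3% with 100 bp, 28.7% with starts of protein-coding genes only, 47.6% at p of 0.01 or less and 29.5% in regions over 500 bp from other lists. Placing the whole peak gave 45.5% in exons, 15.2% in last exons, 30.1% in introns and 24.4% outside genes. With protein-coding genes only, 21.3% were in exons and 43% outside genes. With 1 transcript per gene, 20.5% were in exons, 5.34% in last exons and 49.4% in introns, and the last-exon differences were 3.68, 3.27 and 2.63 points. Limiting only the 250k-only regions to those over 500 bp from other lists gave differences near starts of -43.1, 3.29 and -24.8 points against the unlimited classes, shifts that this one-sided limit produces in part by construction. With the 1M-only classes limited in the same way they were 13.1 and -12.8 points. Score quintiles gave -16.7. The small-RNA share was 5.14% at p of 0.01 or less, with differences of 2.95, 4.54 and 4.69 points. Without the 5S and U2 arrays and LOC124904147 near the latter, it was 4.65%, with 2.49, 4.19 and 4.41 points. Measured between centres, the median distance was 1620 bp. The cause of these shifts was not tested, except where fewer regions or transcripts were used by construction. No paired analysis was possible because each group has 1 peak list. For the same reason no replicate could be left out. GC content and repeats around peak centres were not run, since a genome sequence was not used here. Depth is unknown for all lists, so a region missing from a list cannot be called inactive there.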
